A study of Mus musculus with 2 samples.

Results

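Hepatocytes without strong zonal bias were hepatocytes that carried pericentral and periportal transcripts together, in numbers that differed by no more than 2-fold. They numbered 267 of the 23889 cells kept in the series, and 267 of 3082 hepatocytes. The liver of mice labelled SLC22A18-/- (the knockout) gave 143 of them, and the liver of mice labelled SLC22A18+/+ (the wild type) gave 124. Each genotype was 1 droplet single-cell RNA sequencing library of liver tissue, so there were no replicates and no test was run. A difference between the libraries therefore cannot be told apart from a difference between animals or between dissociations. Slc22a18 is an imprinted gene for an organic cation transporter-like membrane protein, and the series title ties it to allergy, short stature, fatty liver and a β-catenin and Ascl2 axis. The sources used here do not give the strain, the sex and age, how many animals were pooled, or which exons the knockout lacks.

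A cell was kept with at least 300 detected genes and at most 20% of its unique molecular identifiers (UMIs, 1 per captured transcript) from mitochondrial genes. A hepatocyte had at least 10 UMIs summed over Cps1, Abcb11, Ghr and Mlxipl, and at most 1 summed over Ptprc, Stab2, Ptprb, Clec4f, Reln and Dcn, genes of immune, endothelial, Kupffer and mesenchymal cells. Cells with an Lgr5 UMI formed a class of their own. The pericentral sum was taken over Slc1a2, Cyp1a2, Gulo and Oat, and the periportal sum over Hal, Etnppl, Hsd17b6 and Gls2. Cells with at least 3 UMIs over both sums, and neither sum more than 2 times the other, were the unbiased hepatocytes, and cells past either limit were the pericentral and periportal hepatocytes. The members were thus chosen by the measured UMIs of these genes, whose values are given only as a description.

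Hepatocytes line the liver lobule between the portal tract, where blood enters, and the central vein, where it leaves. Periportal hepatocytes are known for gluconeogenesis, urea synthesis and amino acid breakdown. Pericentral hepatocytes are known for glutamine synthesis, bile acid synthesis and cytochrome P450 metabolism, under Wnt and β-catenin signals from the central vein. Cells between the zones, called midlobular, are known for genes such as Hamp and Hamp2, which encode hepcidin, the hormone that limits iron release.

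Unbiased cells made up 8.90% of the knockout hepatocytes (143 of 1607, 95% exact binomial interval 7.55% to 10.4%) and 8.41% of the wild-type hepatocytes (124 of 1475, 7.04% to 9.94%). The interval of each library held the share of the other. The periportal class was far larger, with 1043 knockout and 980 wild-type cells. The pericentral class held 91 knockout and 85 wild-type cells. Another 220 knockout and 158 wild-type cells carried Lgr5. These intervals, and all others below, cover counting error only.

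The 3 naming markers were part of the gate. Mlxipl, a carbohydrate-sensing transcription factor, was at 1112 CPM (its UMIs as a share of all UMIs of the cells, scaled to counts per 1e6) in knockout and 851 CPM in wild-type unbiased cells. Ghr, the growth hormone receptor, was at 4687 CPM in the knockout and 4597 CPM in the wild type. Cps1, the entry enzyme of the urea cycle, was at 4703 CPM in the knockout and 3854 CPM in the wild type. Hepatocyte genes outside the gate were also higher than in T cells. Albumin (Alb) had a UMI in 100% of the members of both libraries, at 11804 CPM in the knockout and 11527 CPM in the wild type. T cells of the same libraries were at 2686 and 2969 CPM, and 100% of them had an Alb UMI too, so only its level sets members apart. In the members with few ribosomal protein transcripts, described below, Alb was at 6439 CPM in the knockout and 7496 CPM in the wild type. T cells should lack albumin, so their level is a measure of free RNA in the droplets. The nuclear receptor Nr1h4, which senses bile acids, was at 845 and 637 CPM in unbiased cells of the knockout and the wild type, against 49.4 and 51.8 CPM in T cells. The label hepatocyte therefore held on genes that the gate did not use.

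The median knockout unbiased cell had 5170 UMIs, 2613 genes and 0.949% mitochondrial UMIs. The median wild-type cell had 4879 UMIs, 2443 genes and 0.988%. The cells sat close to the limits of the rule. The pericentral and periportal sums together had a median of 6 UMIs in both libraries. In 60 knockout and 52 wild-type cells 1 sum was exactly 2 times the other. Just outside, 14 knockout and 17 wild-type pericentral cells, and 34 knockout and 28 wild-type periportal cells, missed the limit by 1 UMI. More pericentral than periportal UMIs were found in 59 knockout and 40 wild-type members, and the opposite in 61 and 67. The automatic doublet score called 1 cell in each library, and 1 knockout member carried a barcode that the wild-type library also held. The median score was 0.0479 in knockout unbiased cells, against 0.0278 in pericentral, 0.0371 in periportal and 0.0341 in Lgr5-carrying cells. The wild type had 0.0516, against 0.0340, 0.0398 and 0.0364. A droplet with a pericentral and a periportal hepatocyte, or free RNA, would also carry both sums, and their part was not tested.

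Members were of 2 kinds by RNA content. Most had few ribosomal protein transcripts, with a median of 0.497% of UMIs in 121 knockout cells and 0.613% in 95 wild-type cells. In these cells Malat1, a long RNA retained in the nucleus, stood at 35127 CPM in the knockout and 41259 CPM in the wild type. The others took more than 2% of their UMIs from ribosomal protein genes, with medians of 6.11% in the knockout and 9.78% in the wild type. Their Malat1 level was 6422 CPM in the knockout and 4887 CPM in the wild type. The ribosomal-protein-rich kind made up 22 of 143 knockout members (15.4%, interval 9.90% to 22.4%) and 29 of 124 wild-type members (23.4%, 16.3% to 31.8%). It gave 18.6% of the knockout and 31.7% of the wild-type UMIs. Among periportal cells it made up 8.53% in the knockout and 8.06% in the wild type. Counts of genotype differences are therefore given for all members and for the ribosomal-protein-poor cells, a split chosen after seeing the data. Values of single genes are for ribosomal-protein-poor cells unless all members are named. Its part in each difference was otherwise not tested.

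**Figure D1:**
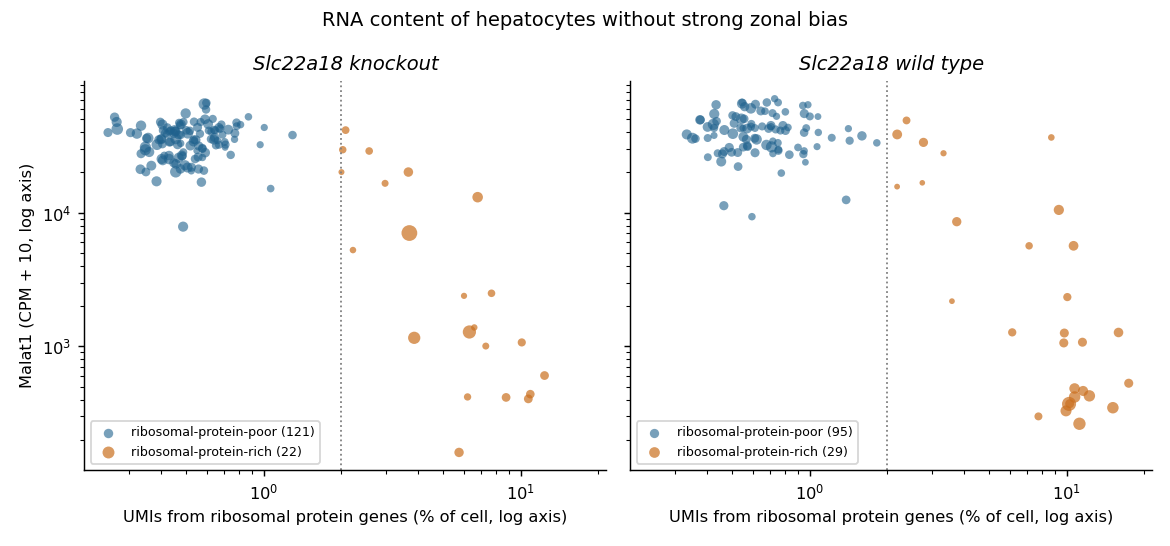
Each point is 1 unbiased hepatocyte, knockout on the left and wild type on the right, with the share of its UMIs from ribosomal protein genes on the horizontal axis (%, log scale) and Malat1 on the vertical axis (CPM plus 10, log scale), and with larger points for cells with more UMIs. The dotted line marks 2%; 121 knockout and 95 wild-type cells lie left of it with high Malat1, and 22 and 29 cells lie right of it, most with far less Malat1.

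Markers of other cell types were low and in part lay at the level of free RNA. The 12 endothelial markers summed to 186 CPM in knockout and 293 CPM in wild-type members, against 5740 and 5928 CPM in cells with at least 2 UMIs of the excluded genes. The 12 Kupffer markers summed to 386 CPM in the knockout and 395 CPM in the wild type. Of 10 cholangiocyte markers, 7 were at 0 in each library, Epcam among them. The 12 B cell markers differed, with 67.3 CPM in the knockout and 252 CPM in the wild type. The invariant chain gene Cd74 gave 33 of 61 knockout and 95 of 178 wild-type B cell UMIs. The 12 genes of dividing cells summed to 54.0 CPM in the knockout and 231 CPM in the wild type, led there by Birc5, a mitotic survival protein.

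The targeted gene did not differ between the libraries beyond counting error. Slc22a18 had 50 UMIs and 55.1 CPM in knockout members, against 38 UMIs and 53.8 CPM in wild-type members (ratio 1.02, 0.659 to 1.61). It had a UMI in 28.7% of knockout and 26.6% of wild-type members, against 2.17% and 2.59% of T cells. The libraries are called by their labels here, since tags from the end of a transcript do not check a deletion elsewhere in the gene.

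Outside the genes of the rule, unbiased cells lay between the zones. Levels across zones are given for ribosomal-protein-poor cells. Of 30 measured pericentral genes, 23 were lower in unbiased than in pericentral cells in both libraries, and 29 were higher than in periportal cells in both. Of 30 periportal genes, 19 were higher than in pericentral cells and 24 lower than in periportal cells in both libraries. In all, 22 pericentral and 20 periportal genes stood between the 2 zones in both libraries.

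Cyp2e1, the ethanol-inducible cytochrome, was at 1549 CPM in knockout unbiased cells, against 1730 CPM in pericentral and 401 CPM in periportal cells of the knockout. In the wild type it was at 900 CPM in unbiased cells, against 1583 CPM in pericentral and 284 CPM in periportal cells. The unbiased level was thus 0.896 of the pericentral level in the knockout (0.820 to 0.979) and 0.569 in the wild type (0.502 to 0.643). Cyp2a5, the coumarin hydroxylase, was at 163 CPM in knockout unbiased cells, against 304 CPM in pericentral and 36.1 CPM in periportal cells. The wild type had 218 CPM, against 529 and 57.7 CPM. Tbx3, a transcription factor downstream of Wnt signals, was at 58.2 CPM in knockout unbiased cells, against 72.6 CPM in pericentral and 9.91 CPM in periportal cells. In the wild type it was at 47.7 CPM, against 130 and 16.3 CPM. Axin2, a direct β-catenin target, was at 12.2 CPM in knockout and 20.7 CPM in wild-type unbiased cells, which was 0.345 and 0.367 of the pericentral level.

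Glul, glutamine synthetase, did not stand between the zones in ribosomal-protein-poor cells. It was at 17.6 CPM in knockout unbiased cells, against 220 CPM in pericentral and 21.2 CPM in periportal cells. The wild type had 22.8 CPM, against 221 and 23.0 CPM. The unbiased level did not differ from the periportal one beyond counting error and lay below that of T cells, at 38.8 CPM in the knockout and 43.0 CPM in the wild type. The unbiased cells held 13 knockout and 11 wild-type Glul UMIs. The T cell level stood above both classes, so it is not a floor of free RNA for this gene. How much Glul the unbiased cells expressed was not tested. Over all members Glul did stand between the zones, at 33.1 CPM in the knockout, against 217 and 21.1 CPM, and at 32.6 CPM in the wild type, against 398 and 23.5 CPM. It was above the periportal level beyond counting error in the knockout (1.57, 1.02 to 2.35), but still below the T cell level in both libraries. Glul is known to be confined to the cells next to the central vein.

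Among periportal genes, Cyp2f2, the naphthalene-oxidizing cytochrome, was at 107 CPM in knockout unbiased cells, against 29.5 CPM in pericentral and 497 CPM in periportal cells. The wild type had 131 CPM, against 41.8 and 457 CPM. Sds, serine dehydratase, which feeds serine into gluconeogenesis, was at 58.2 CPM in knockout unbiased cells, against 39.3 CPM in pericentral and 656 CPM in periportal cells. In the wild type it was at 158 CPM, against 22.1 and 750 CPM. In the knockout, the unbiased and pericentral Sds levels did not differ beyond counting error (ratio 1.48, 0.854 to 2.66), while in the wild type the ratio was 7.13 (3.56 to 16.2). Arg1, the last enzyme of the urea cycle, had a shallow gradient, with 715 CPM in knockout unbiased cells, against 485 CPM in pericentral and 960 CPM in periportal cells.

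**Figure D2:**
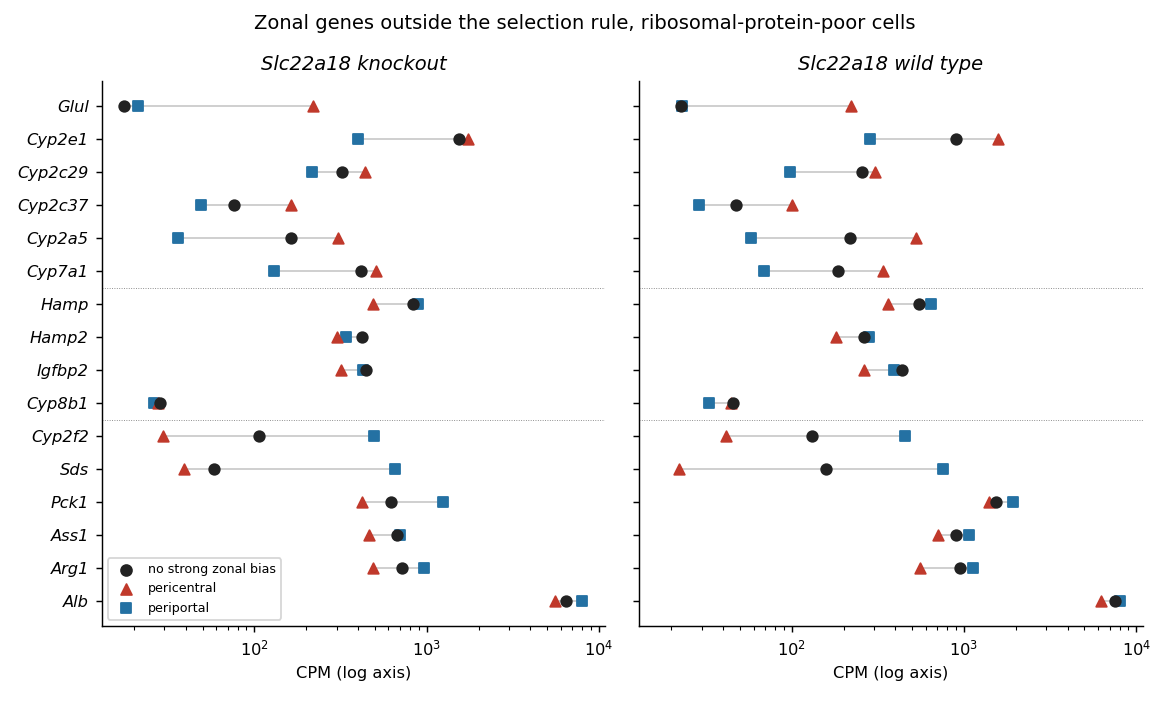
Levels (CPM, log axis) of 16 zonal genes outside the selection rule in ribosomal-protein-poor cells, knockout on the left and wild type on the right, with pericentral genes above the first dotted line, midlobular genes between the lines and periportal genes below. Black circles mark unbiased, red triangles pericentral and blue squares periportal cells; Cyp2e1 of the knockout (1549 CPM) lies beside the pericentral 1730 CPM, while Glul lies at the periportal level in both libraries.

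The 8 midlobular genes did not peak in these cells. Only Igfbp2 and Cyp8b1 were highest in unbiased cells in both libraries, and neither stood above both zones beyond counting error. Igfbp2, an IGF-binding protein, was at 443 CPM in knockout unbiased cells, against 318 CPM in pericentral and 425 CPM in periportal cells. Hamp was at 829 CPM in knockout unbiased cells, against 487 CPM in pericentral and 892 CPM in periportal cells. In the wild type it was at 548 CPM, against 361 and 647 CPM. Hamp2 was at 423 CPM in knockout unbiased cells, against 302 and 338 CPM, and above both zones beyond counting error. In the wild type Hamp2 was at 263 CPM, against 179 and 281 CPM, and so not above the periportal level. Over all members, with ribosomal-protein-rich cells, Hamp2 was highest in unbiased cells of both libraries, at 883 CPM in the knockout, against 555 and 550 CPM, and at 838 CPM in the wild type, against 239 and 475 CPM.

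The promoter windows of the hepcidin genes are printed because the pair stood at different places along the zones in ribosomal-protein-poor knockout cells, though not in wild-type ones. Each runs from 250 bases before to 50 bases after the start, from RefSeq on GRCm38.p6. Capitals mark GGCGCC, the core of the BMP-responsive element known from the human HAMP promoter, read on both strands as it is its own reverse complement. Hamp lies at chr7:30943980-30944279 and Hamp2 at chr7:30924132-30924431, both on the minus strand.
Hamp: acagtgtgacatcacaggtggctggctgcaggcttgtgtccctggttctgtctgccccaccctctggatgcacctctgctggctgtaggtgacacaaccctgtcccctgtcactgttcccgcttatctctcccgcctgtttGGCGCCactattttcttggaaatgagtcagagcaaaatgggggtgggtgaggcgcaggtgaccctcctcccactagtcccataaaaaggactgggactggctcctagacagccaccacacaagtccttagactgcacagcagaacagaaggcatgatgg
Hamp2: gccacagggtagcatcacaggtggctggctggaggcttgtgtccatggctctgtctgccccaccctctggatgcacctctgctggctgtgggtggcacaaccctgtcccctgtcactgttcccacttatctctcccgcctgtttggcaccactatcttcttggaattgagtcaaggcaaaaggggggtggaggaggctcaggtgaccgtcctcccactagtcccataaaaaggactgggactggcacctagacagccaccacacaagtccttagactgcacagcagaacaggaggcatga
The windows were 91.1% identical over 303 aligned positions. Hamp held 1 match, 109 bases before the start, and Hamp2 held none. The motif occurred in 11.9% of all 32851 promoter windows, and the match is a description, not a site.

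Cyp2e1 and Cyp2f2 were also read in single cells, thinned to 2000 UMIs each. Both were found in 12 of 120 knockout unbiased cells (5.27% to 16.8%) and in 16 of 93 wild-type cells (17.2%, 10.2% to 26.4%). Pericentral cells held both in 9.76% of the knockout and 11.4% of the wild type, and periportal cells in 194 of 934 and 113 of 867 cells. Cyp2e1 alone was found in 77.5% of knockout (69.0% to 84.6%) and 53.8% of wild-type unbiased cells (43.1% to 64.2%). Cyp2f2 alone was found in 4.17% of the knockout and 9.68% of the wild-type cells. Pericentral cells held Cyp2e1 alone in 86.6% and 85.7% of knockout and wild-type cells, and periportal cells in 18.3% and 17.3%. T cells, the measure of free RNA, held Cyp2e1 alone in 10.2% and 8.17% and both genes in 1.34% and 0.667%. By this pair, the knockout unbiased cells lay nearer to the pericentral class than the wild-type ones did, and the difference was not tested.

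Few genes set the unbiased cells apart from a zone by at least 2-fold in both libraries. Against pericentral cells, 9 of 4552 genes with at least 50 UMIs in each library were higher (0.198%) and 8 lower (0.176%), among them 4 and 2 genes of the rule. Against periportal cells, 32 of 9739 were higher (0.329%) and 60 lower (0.616%), with 3 and 4 genes of the rule. The pericentral class held 549363 knockout and 540290 wild-type UMIs, against 6024432 and 5447984 in the periportal class. Calls were thus harder to reach against pericentral cells, and the counts do not show which zone lay nearer. In ribosomal-protein-poor cells, 21 of the 29 higher and 50 of the 56 lower genes outside the rule were still at least 2-fold from the periportal level in both libraries. Against the pericentral level it was 3 of 5 higher and 5 of 6 lower genes.

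Sgcz, a sarcoglycan, stood between the zones. It was at 133 CPM in knockout unbiased cells, against 544 CPM in pericentral and 16.5 CPM in periportal cells. The wild type had 127 CPM, against 610 and 26.2 CPM. Lhpp, a phosphatase of phosphohistidine, was lower than in pericentral cells. It was at 33.9 CPM in the knockout, against 104 CPM in pericentral cells, and at 70.5 CPM in the wild type, against 175 CPM. Aspg, an asparaginase, was higher in unbiased than in pericentral cells, at 479 CPM against 167 CPM in the knockout and 508 CPM against 160 CPM in the wild type. Cryl1, a crystallin-related dehydrogenase, was much lower than in periportal cells, at 6.77 CPM against 152 CPM in the knockout and 18.7 CPM against 138 CPM in the wild type. Esrrg, an orphan nuclear receptor, was higher than in periportal cells, at 592 CPM against 185 CPM in the knockout and 421 CPM against 146 CPM in the wild type. Unbiased cells also held more Rdh9, a retinol dehydrogenase, with 84.0 CPM against 15.0 CPM in the knockout and 102 CPM against 28.1 CPM in the wild type. These genes were chosen after their values were seen.

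Members that leaned to 1 side differed in genes such as Sds and Hamp2, chosen after their values were seen. Over all members, Sds was at 21.5 CPM in the knockout cells that leaned pericentral, against 104 CPM in those that leaned periportal. The wild type had 88.7 CPM, against 226 CPM. Hamp2 ran the other way, at 1270.2 CPM in pericentral-leaning and 565 CPM in periportal-leaning knockout cells, and at 1415 and 503 CPM in the wild type. Cyp2e1 differed little, at 1611 and 1356 CPM in the knockout and at 817 and 712 CPM in the wild type. Of 30 pericentral genes, 19 in the knockout and 16 in the wild type were higher in pericentral-leaning members. Of 30 periportal genes, 16 and 12 were. The zone lists thus did not split cleanly by lean. Ribosomal-protein-rich cells raised the Hamp2 level over all members, and their part in the lean values was not tested.

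Between the genotypes, a gene was called higher or lower in knockout unbiased cells by a rule of size. The gene needed 50 or more UMIs over both libraries, a ratio of 2 or more either way with its interval clear of 1, and detection in 5% or more of the cells on the higher side. Of 5678 genes that reached 50 UMIs over all members, 111 were higher (1.95%) and 465 lower (8.19%). In ribosomal-protein-poor cells, 62 of 4680 such genes were higher (1.32%) and 48 lower (1.03%). Counts for the gene lists below are out of measured genes, those with at least 20 UMIs, while a call needed 50. A measured gene may therefore have had too few UMIs to be called. Over all genes, 7715 were measured in ribosomal-protein-poor cells. Of the 465 lower calls over all members, 29 were called again in ribosomal-protein-poor cells, which have fewer UMIs to reach the rule, and 369 had a ratio below 1 there. The 465 held 78 of the 85 ribosomal protein genes that reached 50 UMIs, 55 of 81 nuclear genes of the respiratory chain and 19 proteasome genes. The higher calls held 10 of 11 mitochondrially encoded genes, none of which was called in ribosomal-protein-poor cells. Of the 111 higher calls, 45 were called again. In the knockout, 3 ribosomal-protein-rich cells with over 17% mitochondrial UMIs gave 67.7% of the mitochondrial UMIs of all knockout members.

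**Figure D3:**
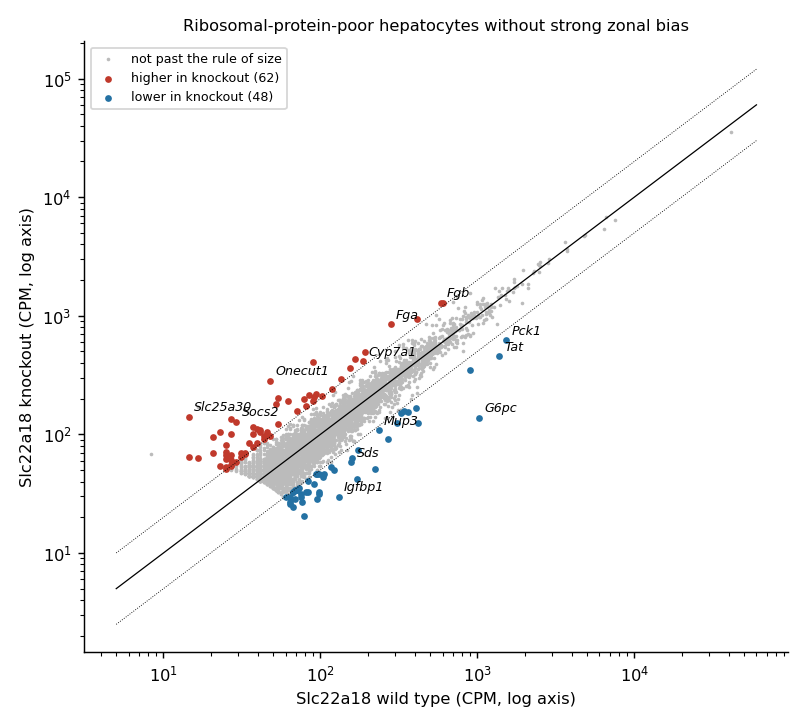
Level of each gene with at least 50 UMIs in ribosomal-protein-poor unbiased cells of the knockout (vertical axis, CPM, log scale) against the wild type (horizontal axis, CPM, log scale); genes at 0 in a library are not drawn. The solid line marks equal levels and the dotted lines a ratio of 2 either way; 62 genes (red) passed the rule as higher and 48 (blue) as lower in the knockout.

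Several genes of glucose output were lower in knockout unbiased cells. In ribosomal-protein-poor cells, 7 of 20 measured genes of gluconeogenesis and glycolysis were lower and 1 was higher, with a median log2 ratio of -0.43, against -0.02 over all genes. Of all 7715 measured genes, 48 were lower and 62 higher. Over all members 5 of 22 genes of the glucose list were lower and 1 higher. G6pc, the catalytic subunit of glucose-6-phosphatase that releases free glucose, was at 138 CPM in knockout and 1023 CPM in wild-type cells (ratio 0.135, 0.108 to 0.167). It had a UMI in 49.6% of the knockout and 90.5% of the wild-type cells. Over all members G6pc was at 133 CPM in the knockout and 751 CPM in the wild type. Pck1, the rate-limiting enzyme of gluconeogenesis, was at 619 CPM in the knockout and 1527 CPM in the wild type (0.405, 0.360 to 0.456). Over all members its ratio was 0.502, just short of the rule. Fbp1, fructose-1,6-bisphosphatase, had 592 CPM in the knockout and 805 CPM in the wild type (0.735), which did not pass.

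Other genes of glucose and amino acid metabolism were lower as well. Tat, tyrosine aminotransferase, was at 455 CPM in knockout and 1367 CPM in wild-type cells (0.333, 0.291 to 0.380). Sds was at 58.2 CPM in the knockout and 158 CPM in the wild type (0.369, 0.248 to 0.544). Ppp1r3c, a glycogen-targeting subunit of protein phosphatase 1, was at 27.1 CPM in the knockout and 64.3 CPM in the wild type (0.421), and over all members its ratio was 0.519, short of the rule. Txnip, a glucose-responsive inhibitor of thioredoxin, was at 32.5 CPM in the knockout and 97.5 CPM in the wild type (0.333, 0.195 to 0.556). The feeding state of the animals was not stated.

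Igfbp1, a secreted IGF-binding protein that rises in fasting, was at 29.8 CPM in knockout and 131 CPM in wild-type cells (0.228, 0.134 to 0.376). The promoter windows of the 2 genes with the lowest ratios are printed because insulin is known to repress both through a shared sequence. Capitals mark CAAAACA, the core of that insulin response sequence, searched on both strands. G6pc lies at chr11:101367466-101367765 and Igfbp1 at chr11:7197537-7197836, both on the plus strand of GRCm38.p6, from RefSeq.
G6pc: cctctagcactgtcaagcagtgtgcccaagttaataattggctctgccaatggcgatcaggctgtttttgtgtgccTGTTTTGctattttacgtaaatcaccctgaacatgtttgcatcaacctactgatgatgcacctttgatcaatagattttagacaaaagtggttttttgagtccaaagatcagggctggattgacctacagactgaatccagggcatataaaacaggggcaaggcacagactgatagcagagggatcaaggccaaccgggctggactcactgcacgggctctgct
Igfbp1: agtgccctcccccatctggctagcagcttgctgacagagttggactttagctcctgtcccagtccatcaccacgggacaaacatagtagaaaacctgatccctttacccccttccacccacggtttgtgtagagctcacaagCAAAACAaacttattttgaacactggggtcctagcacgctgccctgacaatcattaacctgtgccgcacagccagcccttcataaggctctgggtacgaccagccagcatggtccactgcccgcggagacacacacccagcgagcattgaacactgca
The match in G6pc lies on the opposite strand, 174 bases before the start, and that in Igfbp1 on the same strand, 108 bases before it. The windows of Pck1 and Tat held no match. The motif occurred in 6.28% of all promoter windows. Of the 48 genes called lower in ribosomal-protein-poor cells, 36 had a window and 4 of these held it (11.1%), which were G6pc, Igfbp1, Ero1b and Mup3. Of the 62 called higher, 49 had a window and 2 held it (4.08%). A match does not show binding.

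Genes of growth hormone signalling differed in both directions. In ribosomal-protein-poor cells Onecut1 and Socs2 were higher and Igfbp1 and Cux2 lower, of 18 measured genes. Onecut1, a liver transcription factor known as HNF6, was at 283 CPM in knockout and 47.7 CPM in wild-type cells (5.93, 3.85 to 9.56). Over all members it was at 237 CPM in the knockout and 38.2 CPM in the wild type. Socs2, a feedback inhibitor of growth hormone signalling, was at 127 CPM in the knockout and 29.0 CPM in the wild type (4.38, 2.49 to 8.32). Cish, another such inhibitor, was at 50.1 CPM in the knockout and 16.6 CPM in the wild type, with fewer UMIs than the rule asked for in these cells. Over all members Cish passed, with a ratio of 3.11 (1.53 to 6.98). Cux2, a female-biased transcription factor, was at 31.1 CPM in the knockout and 97.5 CPM in the wild type (0.319, 0.185 to 0.537).

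Genes known for a female-biased level in mouse liver were called higher more often than lower, as were all genes in ribosomal-protein-poor cells. Of 19 measured, 4 were higher and 1 lower, against 62 and 48 of all 7715 measured genes. The median log2 ratio of the 19 was 0.45. The higher genes were Slc22a26, an organic anion transporter, Fmo2, a flavin monooxygenase, and the fatty acid omega-hydroxylases Cyp4a10 and Cyp4a14. Cyp4a14 was at 429 CPM in the knockout and 166 CPM in the wild type (2.59, 2.02 to 3.35). Slc22a26 was at 63.7 CPM in the knockout and 16.6 CPM in the wild type (3.84, 1.80 to 9.40). Of 9 male-biased genes, 2 were higher, C8b and Keg1 (1.82 over all members, short of the rule), and 2 lower, Mup3 and Serpina1e. Mup3, a major urinary protein, was at 108 CPM in the knockout and 234 CPM in the wild type (0.462, 0.343 to 0.621). Serpina1e, a form of α1-antitrypsin, was at 28.4 CPM in the knockout and 95.4 CPM in the wild type (0.298, 0.169 to 0.510). Serpina1 genes are near-identical copies, so their counts may be split between them. The sex of the animals was not stated.

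Of 18 measured acute phase genes, 4 were higher and none lower in ribosomal-protein-poor cells, against 62 and 48 of all 7715 measured genes. Among the 4 were the 3 chains of fibrinogen, the clotting protein. Over all members 2 of 19 were higher, Fga and Mt2, and none lower. Fga was at 844 CPM in knockout and 280 CPM in wild-type cells (3.01, 2.50 to 3.66). Fgb was at 1291 CPM in the knockout and 587 CPM in the wild type (2.20, 1.92 to 2.52). Fgg was at 936 CPM in the knockout and 415 CPM in the wild type (2.26, 1.92 to 2.65). Over all members the ratios of Fgb and Fgg were 1.76 and 1.92, short of the rule. Mt1, a metal-binding metallothionein, depended on the kind of cell. It was at 179 CPM in the knockout and 51.9 CPM in the wild type in ribosomal-protein-poor cells (3.45, 2.24 to 5.52), and at 286 CPM in the knockout and 365 CPM in the wild type over all members (0.782, 0.655 to 0.932). Fgl1, a fibrinogen-like hepatokine, was at 202 CPM in the knockout and 53.9 CPM in the wild type (3.74, 2.45 to 5.91).

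Of the 19 measured genes of bile acid synthesis and transport, 1 was higher and none lower in ribosomal-protein-poor cells, against 62 and 48 of all 7715 measured genes. Over all members 1 of the 19 was higher and 1 lower. Cyp7a1, the enzyme that sets the pace of bile acid synthesis, was at 414 CPM in knockout and 187 CPM in wild-type cells (2.22, 1.75 to 2.84). Nr0b2, the receptor SHP that represses Cyp7a1, was at 18.7 CPM in the knockout and 60.9 CPM in the wild type over all members (0.308, 0.165 to 0.551). Its ratio in ribosomal-protein-poor cells was 0.338, with fewer UMIs than the rule asked for. Alas1, the first enzyme of haem synthesis, was at 493 CPM in the knockout and 193 CPM in the wild type (2.56, 2.03 to 3.24).

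Fatty liver is named in the series title, and most lipid genes did not pass. Of 22 measured genes of lipogenesis and triglyceride synthesis, only Acsl1 was higher and none was lower, with a median log2 ratio of -0.06 in ribosomal-protein-poor cells. Of all 7715 measured genes, 62 were higher and 48 lower. Acsl1, which activates long-chain fatty acids, was at 1287 CPM in the knockout and 600 CPM in the wild type (2.15, 1.88 to 2.46). None of 17 genes of lipid droplets and lipid uptake was called in these cells, with a median log2 ratio of 0.04. Of 25 genes of fatty acid oxidation and ketogenesis, Cyp4a10 and Cyp4a14 were higher. Angptl8, a feeding-induced inhibitor of lipoprotein lipase, was at 154 CPM in the knockout and 359 CPM in the wild type (0.430, 0.337 to 0.548), and over all members its ratio was 0.530, short of the rule.

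The β-catenin axis of the title could be read in 10 measured targets, of which none was called either way, with a median log2 ratio of 0.18. Cyp2e1, counted among the targets, had a ratio of 1.72 (1.54 to 1.93) in ribosomal-protein-poor cells. Tcf7l2, a transcription factor that partners β-catenin, was at 489 CPM in the knockout and 467 CPM in the wild type (1.05, 0.884 to 1.24). Of the zone lists, 1 of 27 measured pericentral genes was higher and none lower, and none of 27 periportal genes was higher and 6 lower. Of all 7715 measured genes, 62 were higher and 48 lower. The median log2 ratios of the pericentral and periportal lists were 0.23 and -0.40. Among the 6 lower periportal genes were Sds, Pck1, G6pc and Tat, which also belong to the glucose list, and Serpina1e.

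**Figure D4:**
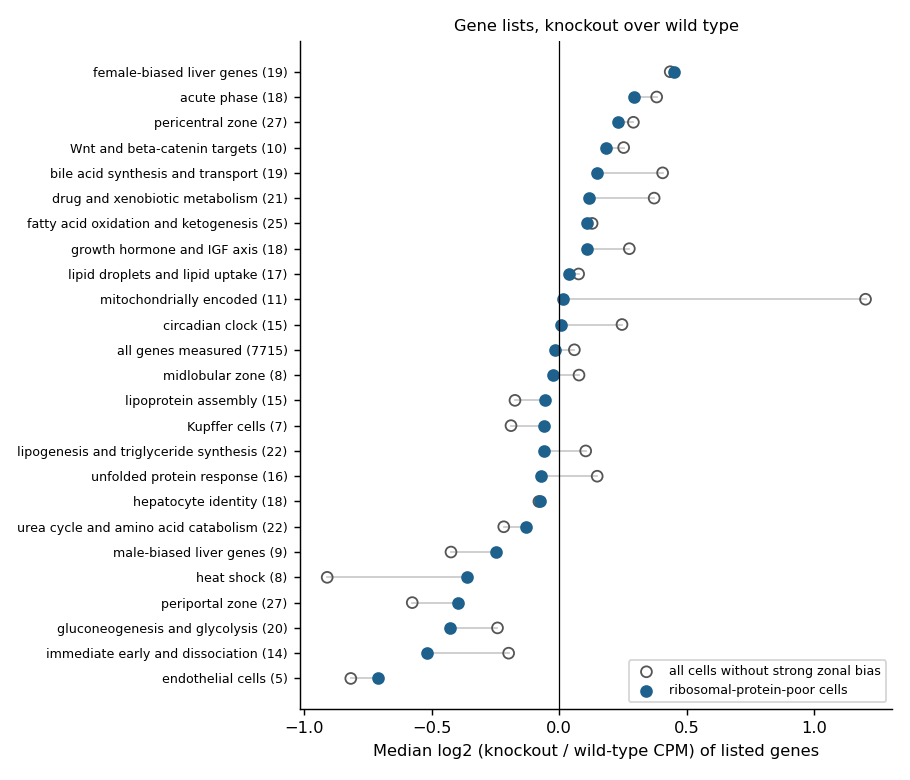
Median log2 ratio of knockout over wild type for each gene list with at least 5 measured genes in ribosomal-protein-poor cells (number in brackets), over all unbiased cells (open circles) and over ribosomal-protein-poor cells (filled circles). The mitochondrially encoded genes moved most between the 2, from a median of 1.20 over all members to 0.01, while the periportal and glucose lists lay below 0 in both.

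Among single genes outside these lists, Slc25a30, a mitochondrial carrier, had one of the largest ratios. It had 104 UMIs and 141 CPM in knockout ribosomal-protein-poor cells, against 7 UMIs and 14.5 CPM in wild-type ones (9.70, 4.54 to 24.7). Its T cell level was 26.7 CPM in the knockout and 19.1 CPM in the wild type. The wild-type unbiased value lay below the T cell level, and the part of free RNA in it was not tested. Steap4, a metalloreductase, had a ratio of 5.02 (2.81 to 9.76). Gadd45g, a growth arrest gene, was at 94.8 CPM in the knockout and 20.7 CPM in the wild type (4.57, 2.34 to 9.94). Phlda1, a pleckstrin homology protein, was at 404 CPM in the knockout and 89.2 CPM in the wild type (4.52, 3.28 to 6.38). On the lower side, Efna1, the ligand ephrin A1, was at 51.5 CPM in the knockout and 224 CPM in the wild type (0.230, 0.154 to 0.335). Slc25a47, a liver mitochondrial carrier, was at 125 CPM in the knockout and 419 CPM in the wild type (0.297, 0.230 to 0.382). Rgs16, a regulator of G protein signals, was at 20.3 CPM in the knockout and 78.8 CPM in the wild type (0.258, 0.132 to 0.479).

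Most of these differences were found on the same side in the other hepatocytes of the same libraries. Of the 62 genes called higher, 54 had a ratio above 1 in pericentral, 55 in periportal and 56 in Lgr5-carrying cells, all ribosomal-protein-poor. Of the 48 called lower, 43, 43 and 40 had a ratio below 1. The intervals lay apart from those of all 3 other classes for 4 higher genes, Acsl1, Exph5, Rc3h2 and Serpina6, and for 1 lower gene, Tob1. Acsl1 had a ratio of 2.15 in unbiased cells, against 1.39 in pericentral, 1.53 in periportal and 1.53 in Lgr5-carrying cells. Tob1, an antiproliferative gene, had a ratio of 0.406, against 0.685, 0.623 and 0.594. The genes were picked for a ratio past 2 either way in unbiased cells, which favours a ratio nearer to 1 in the other classes. The same counts were not taken over all genes, so they do not show genes particular to unbiased cells. These differences between classes were not tested.

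For 3 genes of the glucose list the ratio was nearest to 1 in periportal cells. The ratio of G6pc was 0.135 in unbiased cells, against 0.146 in pericentral, 0.189 in Lgr5-carrying and 0.273 in periportal cells (0.260 to 0.288). Pck1 had 0.405 in unbiased cells, against 0.299 in pericentral, 0.406 in Lgr5-carrying and 0.646 in periportal cells. For Tat the ratios were 0.333 in unbiased cells, against 0.241, 0.316 and 0.493. In each of these 3 genes the unbiased interval lay apart from the periportal one and nearer to 0. Sds differed more, with 0.369 in unbiased and 0.874 in periportal cells (0.834 to 0.917), while in pericentral cells its level was near that of free RNA.

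**Figure D5:**
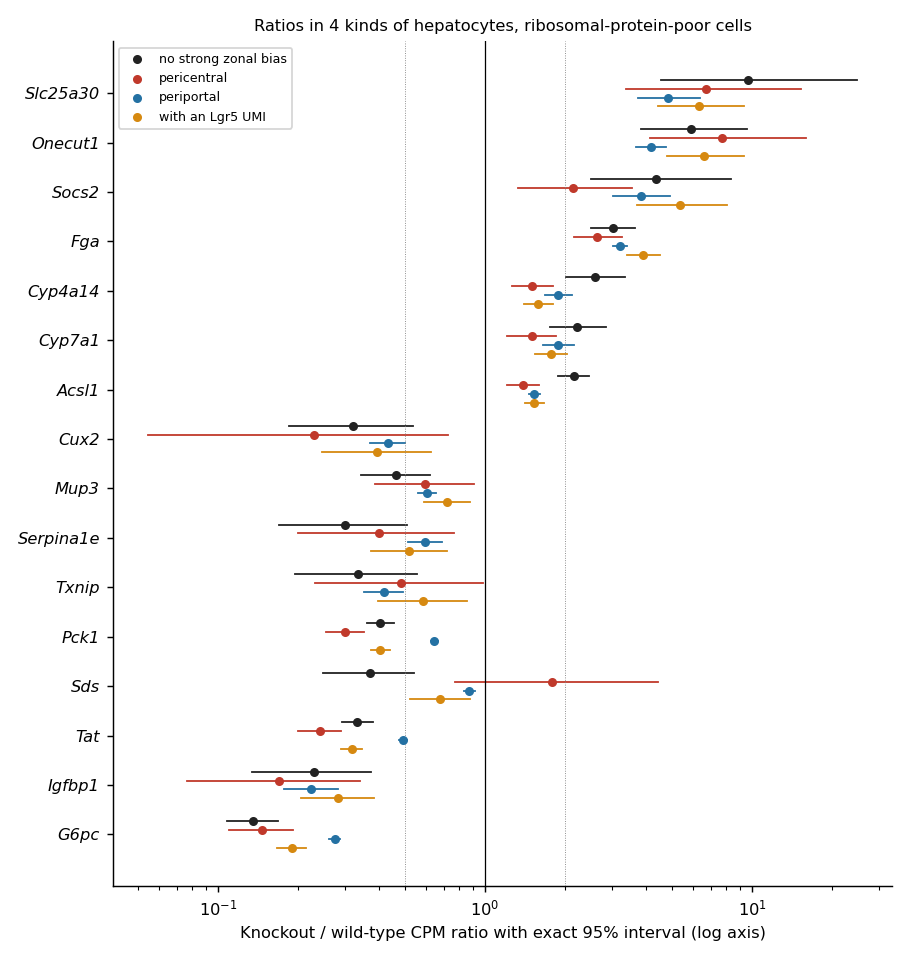
Knockout over wild-type ratio (log axis) with its exact 95% interval for 16 genes in ribosomal-protein-poor cells, with 4 rows per gene for unbiased (black), pericentral (red), periportal (blue) and Lgr5-carrying (orange) hepatocytes. The solid line marks a ratio of 1 and the dotted lines 0.5 and 2; Slc25a30 and Onecut1 lie right of 2 and G6pc and Igfbp1 left of 0.5 in all 4 classes.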

How the data were processed

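The authors deposited 1 matrix of unnormalized UMI counts per gene and droplet for each library, with 11741 knockout and 12796 wild-type barcodes, 33696 genes, and 103478998 and 105556354 UMIs. Cell Ranger 8.0.1 made the matrices, per the file headers, and the submitters' processing notes name STAR and the mm10 build. The lowest barcode held 500 UMIs.

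The rule left 11458 knockout and 12431 wild-type cells. Counts were summed over the members of each library and divided by their total (CPM). With 1 library per genotype, ratios carry exact 95% intervals from the binomial split of the UMIs, with 0.5 added only where a log2 ratio needed it, and no test. Genes named by rule were the 10 with the largest ratios in each direction past the rule of size over all members. From each of 32 gene lists they were up to 4 members past it in each direction, or otherwise the 2 with the most UMIs. Efna1, Slc25a47, Rgs16, Txnip, Fgl1 and Alas1 lay outside this choice and were named after their values were seen. Genes called only in ribosomal-protein-poor cells, such as Pck1, Fgb, Fgg, Mt1, Ppp1r3c, Angptl8 and Keg1, were chosen after their values were seen. List medians were taken over genes with at least 20 UMIs. The members and lists were chosen with earlier results of these data known.

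T cells, with at least 3 UMIs of T cell genes, were taken as a measure of free RNA. That reading does not hold for genes such as Glul, which stood higher in T cells than in unbiased cells. Scrublet in scanpy 1.11.5 (8% expected doublets, 30 components) called 354 knockout and 429 wild-type cells, which were kept. The libraries shared 38 barcodes. Analyses used Python 3.11.15, numpy 2.4.6, scipy 1.17.1, pandas 2.3.3 and matplotlib 3.10.9, and were tested on simulated data. Alternatives changed the score minimum, balance limit, other-cell limit, mitochondrial limit, scaling, cell weights, depth and rule of size. Ribosomal-protein-poor cells alone, removal of shared barcodes and removal of the deepest cell were added after seeing the data. Values of some genes are not reported here.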

Additional observations from a re-analysis of the deposited data

Results flagged for a closer look

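Among the genes named by the rule, 12 differed between the genotypes over all members in 1 direction in unbiased hepatocytes and in the opposite direction in another class, each beyond counting error. Of all 111 higher genes, 10 were opposite in pericentral and 3 in Lgr5-carrying cells. Of all 465 lower genes, 60 were opposite in periportal and 47 in Lgr5-carrying cells. The same share was not taken over all genes. Of the 62 higher and 48 lower genes called in ribosomal-protein-poor cells, none was opposite beyond counting error in pericentral, periportal or Lgr5-carrying cells. The difference between classes was not tested, and each class is 1 library per genotype. The 10 that were opposite in pericentral cells were all mitochondrially encoded, and 4 subunits of respiratory complex I are given here. In the knockout, 3 cells with over 17% mitochondrial UMIs gave 67.7% of the mitochondrial UMIs of all members, and at up to 10% mitochondrial UMIs the log2 ratio of mt-Nd4 was -0.086. The knockout over wild-type ratio of mt-Nd2 was 3.37 in unbiased and 0.777 in pericentral cells. For mt-Nd3 it was 3.78 in unbiased and 0.535 in pericentral cells, for mt-Nd4l 5.17 and 0.457, and for mt-Nd4 3.004 and 0.596. In ribosomal-protein-poor unbiased cells the ratios were 1.35 for mt-Nd2, 1.16 for mt-Nd3, 1.39 for mt-Nd4l and 1.16 for mt-Nd4.

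The other 8 genes were lower in the knockout among unbiased cells. The chaperonin Hspe1 had a ratio of 0.372 in unbiased and 1.09 in periportal cells. Gstm1, a glutathione transferase, had 0.427 and 1.23, Sult2a2, a sulfotransferase, 0.469 and 1.23, and Ndufb10, a complex I subunit, 0.334 and 1.14. Against Lgr5-carrying cells, Fabp1, which binds fatty acids in hepatocytes, had 0.447 in unbiased cells and 1.40, Apoc3, an apolipoprotein, 0.498 and 1.30, Hint1, a nucleotide hydrolase, 0.265 and 1.36, and Serpina1c 0.474 and 1.31. In ribosomal-protein-poor unbiased cells the ratios were 0.904 for Hspe1, 0.706 for Gstm1, 1.37 for Sult2a2, 0.386 for Ndufb10, 1.05 for Fabp1, 1.06 for Apoc3, 0.737 for Hint1 and 1.08 for Serpina1c. The ribosomal-protein-rich kind made up 15.4% of knockout and 23.4% of wild-type unbiased cells, and its part in these ratios was otherwise not tested.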

How the results depend on the processing

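Of 100 alternative values of the shares, counts and zone medians, 72 stayed within their limits and 28 moved. The main values were 111 genes higher and 465 lower, and median log2 ratios of 0.29 for pericentral, -0.58 for periportal and 0.08 for midlobular genes. A zonal score of at least 6 gave shares of 5.10% in the knockout and 4.95% in the wild type. A balance within 1.5 times gave 3.98% and 4%, with 63 higher, 184 lower and a periportal median of -0.38. With no other-cell UMI allowed, the wild-type share was 6.97%, the periportal median -0.93, the midlobular median -0.40, and mt-Nd3 reversed to -0.20 (log2). At up to 10% mitochondrial UMIs the midlobular median was -0.40 and mt-Nd4 reversed to -0.086. Ribosomal-protein-poor cells alone gave 62 higher and 48 lower, medians of -0.40 and -0.024 for periportal and midlobular genes, and reversed values of 0.10 for Serpina1c, 0.064 for Fabp1, 0.078 for Apoc3 and 0.45 for Sult2a2. Median ratio scaling shifted all log2 ratios by -0.10, to medians of 0.19, -0.68 and -0.025. Weighting each cell equally gave 180 lower, -0.35 periportal and -0.028 midlobular. Thinned cells gave 40 higher, 88 lower, a midlobular median of -0.089 and a reversed 0.16 for Tubb4b. Without the deepest cells the midlobular median was -0.027. A minimum of 20 UMIs gave 194 higher, and a ratio of at least 1.5 gave 439 higher and 761 lower. The cause of these shifts was not tested. Over 65 named genes, 685 of 845 values stayed, 153 moved and 7 reversed. No paired analysis was possible because each genotype had 1 library, which also left no library to leave out. Depth limits genes under 50 UMIs.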

Other observations

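Other gene lists are given here for ribosomal-protein-poor unbiased cells of the knockout against the wild type. Measured genes under 50 UMIs could not be called, so a list without calls does not show that its genes were equal. Of 22 measured genes of the urea cycle and amino acid breakdown, Sds and Tat were lower and none was higher, with a median log2 ratio of -0.13. Ass1, argininosuccinate synthase, had 670 CPM in the knockout and 898 CPM in the wild type (0.746, 0.655 to 0.851), and did not pass. None of 15 lipoprotein assembly genes and none of 15 circadian clock genes was called, with medians of -0.06 and 0.01. Of 21 genes of drug metabolism, Fmo2 and Cyp2c70, a bile acid hydroxylase, were higher. Cyp2c70 was at 363 CPM in the knockout and 154 CPM in the wild type, and over all members its ratio was 1.79, short of the rule. Of 16 genes of the unfolded protein response only Xbp1, its transcription factor, was higher, at 172 CPM in the knockout and 80.9 CPM in the wild type, with a ratio of 1.998 over all members, short of the rule. Of 14 immediate early genes, Gadd45g was higher and Dusp1, a phosphatase of MAP kinases, lower, at 74.5 CPM in the knockout and 174 CPM in the wild type (0.427, 0.299 to 0.608), and over all members its ratio was 0.546, short of the rule. None of 8 heat shock genes was called, with a median of -0.36, whereas 4 of 12 were lower over all members. Of 18 hepatocyte identity genes only Fgb was higher. Of 5 endothelial and 7 Kupffer genes none was called, with medians of -0.71 and -0.06.

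The hepcidin genes were higher in the knockout in ribosomal-protein-poor cells, short of a ratio of 2. Hamp was at 829 CPM in the knockout and 548 CPM in the wild type (1.51, 1.31 to 1.75), against 805 and 966 CPM over all members (0.833). Hamp2 had a ratio of 1.60 (1.30 to 1.99), against 1.05 over all members.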
